A study of Mus musculus with 8 samples.

Results

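The genes described here are 37 markers of macrophages and other myeloid cells, taken by symbol from a table of 23219 genes in whole mouse kidney. All 37 were present in the table. They were listed by name and role and not picked from a threshold on these values, although earlier results of the same data were known. The mice were 2 months old. Controls were Mta2flx/flx (4 kidneys) and mutants Six2Cre Mta2flx/flx (4 kidneys), so floxed Mta2 alleles were common to both genotypes and Cre was particular to the mutants. Mta2 encodes a subunit of the chromatin remodelling and deacetylase complex NuRD. Six2Cre places Cre under a gene of nephron progenitor cells, from which the epithelium of the nephron derives and the myeloid cells do not. The series title names FSGS (focal segmental glomerulosclerosis), in which glomeruli scar, and the question here is whether the myeloid genes of the kidney differed with the genotype. The labels give 4 kidneys per genotype without stating whether all were from different animals, so a p-value here reflects only how these samples vary, which may be technical.

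Kidney macrophages lie between the tubules and around the glomeruli, and they come both from embryonic precursors and from blood monocytes. They depend on the growth factor receptor encoded by Csf1r, take up particles through scavenger, lectin and Fc receptors, and kill or digest them with lysozyme, oxidants and lysosomal proteases. Many of their activating receptors have no signalling tail and use the adaptors Tyrobp and Fcer1g, whose tyrosine motifs (ITAMs) recruit the kinase Syk. After kidney injury, macrophages become more numerous and change their genes as they clear debris.

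Levels are given in BPM, bases assigned to a gene per megabase assigned to all genes. The libraries held 164 to 468 megabases assigned to genes. Small RNA genes such as small nucleolar RNAs took 16.0% to 34.8% of a control library. Their shares were 26.7%, 48.4%, 53.2% and 26.1% in mutants 3382, 3387, 3487 and 3489. Because the authors scaled every library to the same total, other genes appear lower where small RNAs take more. The median tested gene was lower by 0.23 (log2 fold change -0.23) in the mutants. A second scaling that gives all libraries the same median over genes other than small RNAs, called median scaling, moved this to -0.03. Changes are given under both scalings where they differ. Mta2 itself had a log2 fold change of -0.56 (SE 0.40, limma adjusted p = 0.857), so the targeted gene did not separate the groups in whole kidney.

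Of the 37 genes, 29 reached 1 BPM in at least 4 libraries and were tested. Of these, 2 (Clec4n and Ncf4) were under 1 BPM in at least 3 controls and entered chiefly through the mutants. No myeloid gene passed an adjusted p of 0.05 (limma over all 13060 genes tested), while 0.0766% of all tested genes passed on the higher side. At an unadjusted p under 0.05 there were 10, all higher in the mutants, against 1.91% of all tested genes higher at that level. Log2 fold changes were positive for 27 of the 29, whereas 28.4% of all tested genes were positive. The median of the 29 was 0.91 and that of all tested genes -0.23. Under median scaling 27 were again positive, against 46.6% of all tested genes, with medians of 1.01 and -0.03. With no filter, 34 of the 36 genes with coverage in any library were positive with a median of 0.87, against 35.4% positive and a median of -0.14 over the 17152 such genes of the table. Every mutant lay above every control for 3 of the 29 (Lyz2, Cd14 and Clec4n), against 0.888% of all tested genes. In bulk tissue, more cells of a type and more RNA per cell cannot be told apart.

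Under median scaling 3 myeloid genes rose past the threshold, namely Clec4n and Lyz2 (adjusted p = 0.0118 each) and Cd14 (adjusted p = 0.0199, limma). The share of all tested genes called higher was 0.398%. Clec4n entered the test chiefly through the mutants, where it was higher. With no filter on low values, so that 23219 genes were adjusted over, none of the 3 passed (adjusted p of 0.224 for Clec4n and Cd14 and 0.360 for Lyz2). Every mutant lay above every control for 6 of the 29, adding Clec7a, Mrc1 and Tyrobp, against 2.79% of all tested genes. The scaling, the filter and single libraries thus decide these calls. Under the authors' scaling the count of called myeloid genes was 3 without mutant 3487 (Clec4n, Lyz1 and Lyz2) and 1 without control 3486 (Clec4n). Under median scaling it was 0 without control 3401 and 6 without mutant 3487, which added Clec7a, Lyz1 and Mpeg1. Cd14 missed the threshold there without mutant 3382 or mutant 3489 (adjusted p of 0.0629 and 0.0787), and Clec4n without mutant 3387 (0.0623). Lyz2 missed it without control 3401 (0.0637).

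**Figure D1:**
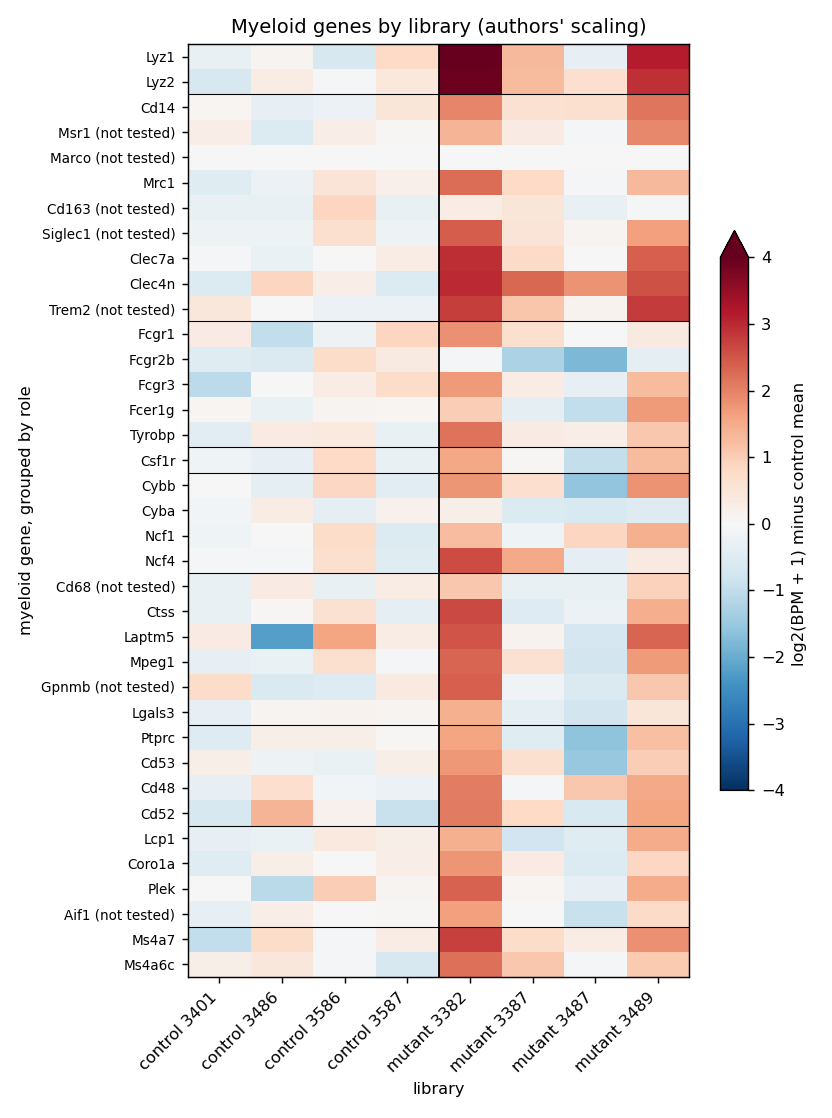
Each row is one of the 37 myeloid genes and each column one library. Colour is log2(BPM + 1) minus the mean of the 4 controls, with values over 4 drawn at the darkest red. The columns of mutants 3382 and 3489 are red for nearly all rows, while mutant 3487 holds both colours and Fcgr2b is blue in mutants 3387 and 3487.

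The mutant kidneys differed among themselves more than the controls did. Mutant 3382 was the highest of the 8 libraries for 26 of the 36 genes with coverage and mutant 3489 for 7. Among the 29 tested genes, mutant 3382 exceeded all controls for 27, mutant 3489 for 25, mutant 3387 for 10 and mutant 3487 for 5. Over all tested genes those shares were 29.8%, 23.0%, 5.96% and 3.02%. The median ratio of a tested myeloid gene to its control mean was 4.56 in mutant 3382, 2.83 in 3489, 1.25 in 3387 and 0.682 in 3487. After median scaling these ratios were 3.48, 2.40, 1.82 and 1.27. The mean log2 level of the 29 genes was 2.78 to 3.32 in the controls and 5.12, 3.40, 2.73 and 4.45 in mutants 3382, 3387, 3487 and 3489. Under the authors' scaling mutant 3487 was the lowest library of all. After median scaling the controls spanned 2.76 to 3.22 and the mutants stood at 4.70, 3.81, 3.37 and 4.11, so that all 4 mutants lay above all controls. The mutants of lowest myeloid level were those of highest small RNA share. With that share as a covariate, 16 of the 29 passed on the higher side, where 3.15% of all tested genes did so. This setting moved all genes upward, with 68.1% of all tested genes positive and a median of 0.25, against 1.49 for the 29. The share is also partly tied to the genotype, since mutants 3387 and 3487 had shares above all controls.

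**Figure D2:**
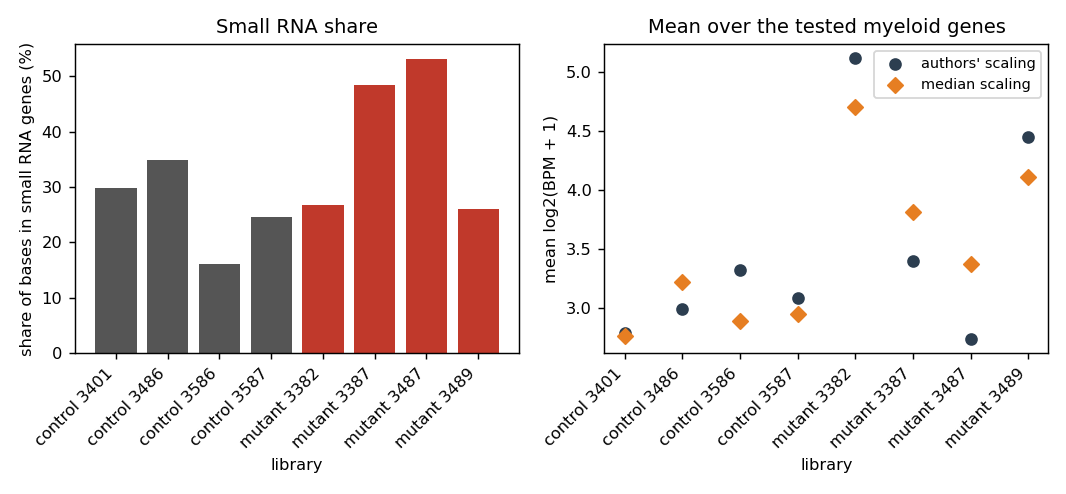
The left bars give the percentage of each library's bases in small RNA genes, and the right points give the mean log2(BPM + 1) of the 29 tested myeloid genes under both scalings. Mutants 3387 and 3487, at 48.4% and 53.2% small RNA, are the lower mutants on the right, and all 4 mutants exceed all controls only under median scaling.

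The lysozymes, which cut the peptidoglycan of bacterial walls, had among the largest changes. Lyz2, the main lysozyme gene of mouse macrophages, was at 43.4, 83.5, 65.6 and 92.0 BPM in controls 3401, 3486, 3586 and 3587. It was at 1057, 165, 110.0 and 529 BPM in mutants 3382, 3387, 3487 and 3489. All mutants were above all controls, and the highest mutant was far from the lowest. Group means were 71.1 ± 21.5 and 465 ± 436 BPM (SD, n = 4 each). The log2 fold change was 2.20 (SE 0.52, limma adjusted p = 0.116) and 2.42 (SE 0.40) under median scaling. Lyz1, known for its place in Paneth cells of the mouse gut, was at 4.07, 5.74, 2.9999 and 9.70 BPM in the controls. It was at 249.8, 14.1, 3.97 and 53.7 BPM in the mutants in the same order of libraries. In 3 of 4 mutants it lay above all controls, while mutant 3487 lay among them (log2 fold change 2.36, SE 0.79, adjusted p = 0.510). The change of Lyz1 moved from 1.37 to 4.24 over the alternatives.

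These genes are neighbours on chromosome 10, at 117287797 to 117292868 (Lyz1) and 117277331 to 117282321 (Lyz2) on the minus strand of mm10. Their principal transcripts were identical at 96.0% of aligned bases. Of the 50-base words of the Lyz1 transcript, 16.1% also occur in Lyz2. How the authors divided reads between such copies is not given in the sources used here, so the split between both genes is uncertain. Their promoters are shown because the genes lie side by side and had similar fold changes (RefSeq, GRCm38.p6, 250 bases before to 50 after the start, gene strand, chr10:117292819-117293118 and chr10:117282223-117282522). Capitals mark the longest stretch that both share, 86 bases from position -50 to 35 with the start base as 0.
Lyz1: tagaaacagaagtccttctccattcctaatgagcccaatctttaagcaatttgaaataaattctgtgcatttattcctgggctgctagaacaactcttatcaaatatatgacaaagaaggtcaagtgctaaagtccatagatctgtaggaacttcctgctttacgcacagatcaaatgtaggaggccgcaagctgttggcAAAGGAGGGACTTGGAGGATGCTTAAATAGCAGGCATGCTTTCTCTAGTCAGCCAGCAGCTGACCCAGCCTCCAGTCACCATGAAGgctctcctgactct
Lyz2: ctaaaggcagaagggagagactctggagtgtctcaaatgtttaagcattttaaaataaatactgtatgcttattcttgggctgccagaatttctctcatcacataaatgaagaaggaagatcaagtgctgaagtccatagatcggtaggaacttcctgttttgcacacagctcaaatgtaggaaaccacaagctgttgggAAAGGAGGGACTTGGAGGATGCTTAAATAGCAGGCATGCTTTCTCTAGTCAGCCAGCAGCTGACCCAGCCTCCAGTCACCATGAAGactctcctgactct
Over the whole 300 bases the promoters were identical at 83.6% of aligned positions.

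Among receptors for microbial and dying material, the lectin receptors Clec4n (dectin-2, a receptor for fungal mannans) and Clec7a (dectin-1, a receptor for beta-glucans) had the larger changes. Clec4n had no coverage in controls 3401 and 3587 and was at 1.66 and 0.777 BPM in controls 3486 and 3586. It was at 10.7, 6.28, 4.08 and 7.63 BPM in mutants 3382, 3387, 3487 and 3489. All mutants were above all controls (log2 fold change 2.40, SE 0.48, limma adjusted p = 0.0586). With no filter on low values the adjusted p was 0.350. In the authors' deposited table its ratio of means was 11.7 and its p-value 0.00381, and no other myeloid gene there had a p under 0.05. Clec7a was at 4.001, 3.30, 4.08 and 5.31 BPM in the controls. It was at 38.3, 7.65, 4.17 and 25.9 BPM in the mutants, so mutant 3487 lay within the controls and the other 3 above them (log2 fold change 1.52, SE 0.56, adjusted p = 0.572, and 0.0691 under median scaling).

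Cd14, the co-receptor that hands bacterial lipopolysaccharide to Tlr4, was at 12.5, 9.33, 9.94 and 16.97 BPM in the controls. It was at 48.9, 18.6, 19.2 and 55.8 BPM in the mutants, all above the highest control (log2 fold change 1.34, SE 0.43, limma adjusted p = 0.449). Cd14 kept closer to a common level in the mutants after median scaling, with 36.0, 25.8, 33.2 and 43.1 BPM (mean 34.5 ± 7.18 against 11.4 ± 3.37 in the controls, SD, n = 4). Injured tubule cells can also express it. The mannose receptor Mrc1, a marker of tissue-resident macrophages, was at 2.38, 2.96, 5.68 and 4.39 BPM in the controls, and 20.8, 7.20, 3.55 and 10.5 BPM among the mutants. Mutant 3487 lay within the controls (log2 fold change 1.07, SE 0.50, adjusted p = 0.788), and all mutants exceeded all controls after median scaling.

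The other 5 receptors of this kind were too low to be tested. Trem2, a receptor for lipids and cell debris, was at 0.626 and 0.199 BPM in controls 3401 and 3486, without coverage in the other controls, and at 6.99, 1.56, 0.309 and 7.26 BPM in mutants 3382, 3387, 3487 and 3489. Siglec1, the sialic acid receptor of tissue macrophages, had coverage in control 3586 alone among the controls (0.795 BPM) and was at 5.21, 0.652, 0.261 and 2.62 BPM in the mutants. For both genes mutants 3382 and 3489 stood highest. The class A scavenger receptor Msr1 reached at most 0.743 BPM in the controls, and 4.59 BPM among the mutants. The haemoglobin scavenger receptor Cd163 reached 1.22 BPM in control 3586 and 0.732 BPM in mutant 3387. Marco, a scavenger receptor of alveolar and splenic macrophages, had no coverage in any of the 8 libraries.

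The promoters of Clec7a and Mrc1 are shown because they belong to the genes whose mutants all exceeded all controls after median scaling, and that of Fcgr2b because it went the other way. Capitals mark GAGGAA on either strand, the core of the box bound by the myeloid factor PU.1 (RefSeq, GRCm38.p6, gene strand, chr6:129472730-129473029, chr2:14229164-14229463 and chr1:170976022-170976321).
Clec7a: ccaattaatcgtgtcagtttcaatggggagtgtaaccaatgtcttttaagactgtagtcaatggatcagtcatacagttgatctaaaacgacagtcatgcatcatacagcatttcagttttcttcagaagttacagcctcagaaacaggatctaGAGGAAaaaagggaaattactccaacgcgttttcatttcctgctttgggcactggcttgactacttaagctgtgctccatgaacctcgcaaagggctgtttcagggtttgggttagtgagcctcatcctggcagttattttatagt
Mrc1: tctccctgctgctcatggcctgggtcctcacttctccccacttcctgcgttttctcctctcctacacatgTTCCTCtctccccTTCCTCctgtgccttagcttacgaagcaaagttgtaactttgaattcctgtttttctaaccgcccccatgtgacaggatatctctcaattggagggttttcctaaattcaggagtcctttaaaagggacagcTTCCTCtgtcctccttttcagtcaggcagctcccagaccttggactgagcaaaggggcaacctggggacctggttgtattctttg
Fcgr2b: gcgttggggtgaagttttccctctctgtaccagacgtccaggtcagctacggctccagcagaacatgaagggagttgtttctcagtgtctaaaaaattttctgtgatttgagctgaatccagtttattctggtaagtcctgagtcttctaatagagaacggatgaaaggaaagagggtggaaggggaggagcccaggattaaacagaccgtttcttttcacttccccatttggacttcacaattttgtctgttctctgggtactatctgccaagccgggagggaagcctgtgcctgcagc
The Clec7a window held 1 match, the Mrc1 window 3 and the Fcgr2b window 0. The window of Lyz2, whose mutants also all exceeded all controls, held 0 as well, and so did that of Lyz1. Whether the motif goes with the sign of the change was not tested. Promoters were found for 29 of the 37 genes, and 15 of these (51.7%) held the motif, against 28.3% of the 27025 promoters in the RefSeq table. The first promoter listed was used for genes with more than 1. An AP-1 motif (TGANTCA) was held by 13.8% of the myeloid promoters and 7.93% of all, a C/EBP motif (TTGCNNAA) by 13.8% and 10.8%, and TATAAA by 13.8% and 14.2%. Both strands were searched for each. Median base composition differed, with 46.3% G and C in the myeloid promoters and 52.7% in all.

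**Figure D3:**
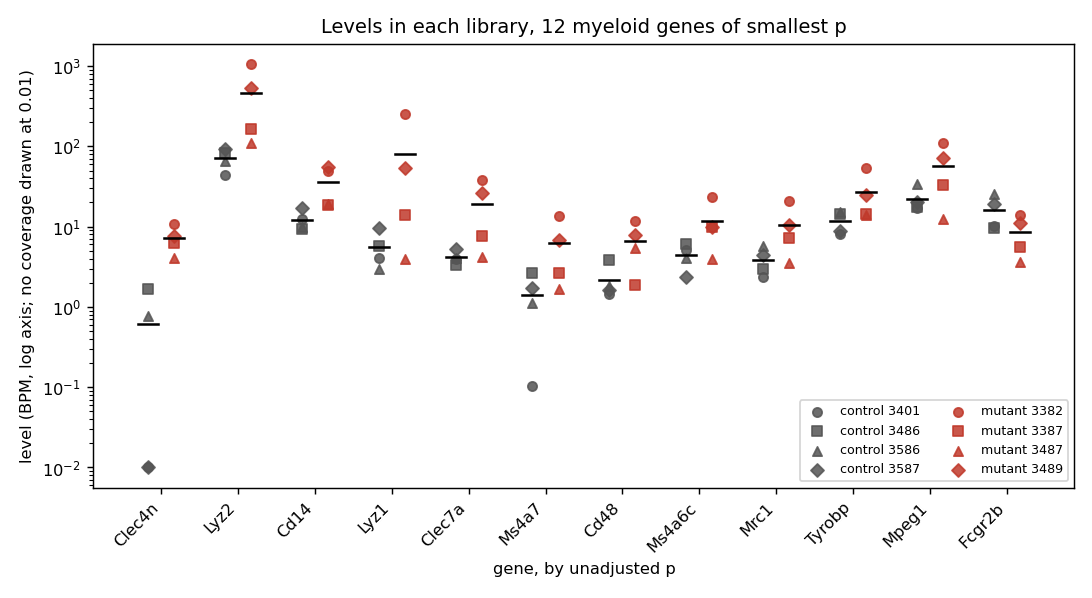
Points are levels in single libraries (BPM, log axis) for the 12 myeloid genes of smallest unadjusted p, grey for controls and red for mutants, with bars at group means. Lyz2, Cd14 and Clec4n have every mutant above every control, and Fcgr2b has the mutant mean below the control mean.

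The Fc receptors, which bind the constant part of antibodies, had fold changes of both signs. The activating receptor gene Fcgr3 was at 3.10, 7.34, 9.33 and 12.9 BPM in the controls, and 26.2, 9.34, 5.60 and 18.9 BPM among the mutants (log2 fold change 0.73, SE 0.51, limma adjusted p = 0.857). The high-affinity receptor gene Fcgr1 had a mean of 2.19 ± 1.62 and 4.31 ± 3.37 BPM (SD, n = 4 each; log2 fold change 0.71). Fcgr2b encodes the inhibitory receptor of the family, found on B cells, macrophages and some endothelia. It was at 10.3, 9.59, 25.4 and 19.4 BPM in the controls, and 13.9, 5.57, 3.59 and 11.1 BPM among the mutants. Its groups overlapped, and its log2 fold change of -0.89 (SE 0.48, 95% interval -1.89 to 0.11, adjusted p = 0.826) was the lowest of the tested myeloid genes. It was negative in every alternative, from -1.16 to -0.16.

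A ratio of 2 genes within a library does not depend on how the library was scaled. The ratio of Fcgr3 to Fcgr2b was 0.301, 0.765, 0.368 and 0.668 in the controls and 1.88, 1.68, 1.56 and 1.71 in mutants 3382, 3387, 3487 and 3489. The means were 0.525 ± 0.226 and 1.71 ± 0.134 (SD, n = 4 each), and the groups did not overlap, with the mutants of high and low small RNA share at similar values. The pair was chosen after its values were seen and is given without a test. Of all 406 pairs of tested myeloid genes, 69 had ratios that did not overlap between groups (17%), against 5.76% of pairs of all tested genes. Without Fcgr2b and Cyba, the genes of negative fold change, 41 of 351 pairs did not overlap. Many of these pairs held Lyz2 or Clec4n, and Clec4n entered the test chiefly through the mutants. Of the 28 pairs with Fcgr2b 21 did not overlap, against 17.8% of its pairs with any tested gene. Of the 28 pairs with Fcgr3 there were 3, against 15.8%. Fcgr2b and Fcgr3 share 12.8% of the 50-base words of the Fcgr3 transcript. Endothelial markers had values of the same sign as Fcgr2b, with 0 of 10 at a positive log2 fold change (median -0.60, with 0 of 10 positive and a median of -0.39 under median scaling, and 3 and -0.21 with the small RNA covariate), and their part in its value was not tested.

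Of the ITAM adaptors, Tyrobp (DAP12, the partner of Trem2 and other receptors) was at 8.19, 14.6, 15.2 and 8.91 BPM in the controls, and 53.9, 14.3, 13.9 and 24.9 BPM among the mutants. Mutants 3387 and 3487 lay within the controls (log2 fold change 0.96, SE 0.45, limma adjusted p = 0.788), and all mutants were higher after median scaling. Fcer1g, the shared gamma chain of Fc receptors, was at 4.43 ± 0.616 and 7.82 ± 6.78 BPM (SD, n = 4 each), with 16.5 BPM in mutant 3489 and 1.72 BPM in mutant 3487. Of 11 tested genes of ITAM signalling outside the 37, 0 passed (limma), 8 were positive and the median was 0.27. The adaptor gene Lat2 differed by 1.11 on the log2 scale, with an adjusted p of 0.799.

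Csf1r, the receptor for the macrophage growth factors Csf1 and Il34, was at 18.2, 16.6, 36.8 and 16.9 BPM in the controls, and 63.6, 21.5, 10.4 and 51.8 BPM among the mutants. Mutants 3382 and 3489 exceeded all controls, mutant 3387 lay within them and mutant 3487 below them (log2 fold change 0.48, SE 0.49, limma adjusted p = 0.895). Of its transcribed bases, 15.1% overlap the opposite-strand gene Hmgxb3, and no use of strand is stated. The ligand genes Csf1 and Il34 had log2 fold changes of -0.01 and 0.52 (adjusted p of 0.999 and 0.894). Il34 was at 27.2 and 38.5 BPM in mutants 3382 and 3489 and at 9.22 and 8.03 BPM in mutants 3387 and 3487, against 6.28 to 19.97 BPM in the controls. Of 10 tested genes of myeloid transcription factors, 0 passed, 7 were positive and the median was 0.14. Cebpa and Batf3 had the smallest p there (-0.73 and 0.35 on the log2 scale, with an adjusted p of 0.828 and 0.917). In the table, PU.1 is listed as Sfpi1, at 1.07 ± 0.892 and 1.45 ± 0.991 BPM (SD, n = 4 each).

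The phagocyte NADPH oxidase makes superoxide from oxygen, with Cybb and Cyba as its membrane subunits and Ncf1 and Ncf4 as cytosolic ones. Cybb was at 6.22, 4.65, 11.9 and 4.44 BPM in the controls, and 23.8, 10.7, 1.45 and 24.2 BPM among the mutants (log2 fold change 0.66, SE 0.61, limma adjusted p = 0.886). The values of mutant 3487 were below, and those of 3382 and 3489 above, all controls. Ncf4 was at 0.938, 0.965, 2.18 and 0.458 BPM in the controls, and 11.6, 4.798, 0.594 and 1.65 BPM among the mutants (log2 fold change 1.03). Ncf1 had a log2 fold change of 0.83, and 11.1% of its transcribed bases overlap Gtf2ird2 on the other strand. Cyba is also a partner of Nox4, the oxidase of kidney tubules, and stood apart from the others. It was at 535, 709, 459 and 663 BPM in the controls, and 686, 399.7, 379 and 407 BPM among the mutants (log2 fold change -0.36, SE 0.30). Nox4 was at 201 ± 81.6 and 107 ± 38.8 BPM (SD, n = 4 each; limma adjusted p = 0.616). Of the 4 oxidase genes outside the 37, 0 passed and 3 were negative.

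Among genes of lysosome and phagosome proteins, Mpeg1, which encodes the pore-forming perforin-2, was at 16.8, 17.5, 34.0 and 20.3 BPM in the controls, and 111.6, 32.7, 12.4 and 71.5 BPM among the mutants (log2 fold change 0.98, SE 0.51, limma adjusted p = 0.816). Mutants 3382 and 3489 were above all controls and mutant 3487 below them. The protease gene Ctss, needed for class II antigen loading, was at 53.0 BPM in mutant 3382 and 22.5 BPM in mutant 3489. It was at 4.96 and 6.31 BPM in mutants 3387 and 3487, against 5.69 to 12.2 BPM in the controls. Laptm5 had no coverage in control 3486 and a log2 fold change of 1.08 (SE 0.75). Lgals3 (galectin-3, also made by tubule epithelium) was at 30.6 ± 4.47 and 41.7 ± 29.3 BPM (SD, n = 4 each; log2 fold change 0.20). Its sign turned without mutant 3382 (-0.20). Gpnmb and the common macrophage marker Cd68 were too low to be tested. Gpnmb was at 6.83 and 2.18 BPM in mutants 3382 and 3489 and at most 1.49 BPM in the controls. Cd68 had no coverage in 4 of the 8 libraries and reached 1.61 BPM in mutant 3382.

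Of the genes of all leukocytes, Ptprc (CD45, the phosphatase on all white cells) was at 6.18, 11.1, 11.2 and 9.64 BPM in the controls, and 29.5, 6.36, 2.34 and 22.9 BPM among the mutants. Between groups it differed by 0.17 on the log2 scale (SE 0.58, 95% interval -1.04 to 1.37, limma adjusted p = 0.966), and the sign turned without control 3401, mutant 3382 or mutant 3489 (-0.00, -0.30 and -0.18). The tetraspanin gene Cd53 had a log2 fold change of 0.45 and the surface protein gene Cd52 of 0.95. Cd48, a ligand of the SLAM family, was at 1.43, 3.83, 1.82 and 1.62 BPM in the controls, and 11.7, 1.89, 5.42 and 7.81 BPM among the mutants, with mutant 3387 within the controls (log2 fold change 1.14, SE 0.50, adjusted p = 0.758). Among actin-linked genes of leukocytes, Plek had a log2 fold change of 0.91, with 15.7, 2.42, 1.59 and 8.02 BPM in the mutants and 0.529 to 5.41 BPM in the controls. The actin bundler gene Lcp1 had 0.41 and Coro1a 0.60. Aif1, which encodes the macrophage protein Iba1, was too low to be tested, at 0.890 ± 0.312 and 1.97 ± 2.11 BPM (SD, n = 4 each).

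Both members of the Ms4a family, four-pass membrane proteins of macrophages, were higher on average. Ms4a7 was at 0.102, 2.68, 1.11 and 1.70 BPM in the controls, and 13.5, 2.65, 1.69 and 6.84 BPM among the mutants (log2 fold change 1.398, SE 0.56, limma adjusted p = 0.659). Ms4a6c was at 5.18, 6.13, 4.02 and 2.39 BPM in the controls, and 23.2, 10.0, 3.96 and 9.87 BPM among the mutants (log2 fold change 1.06, SE 0.50, adjusted p = 0.788). In both genes mutant 3487 lay within the controls. Ms4a6c shares 11.3% of its 50-base words with other genes, chiefly Ms4a6b.

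**Figure D4:**
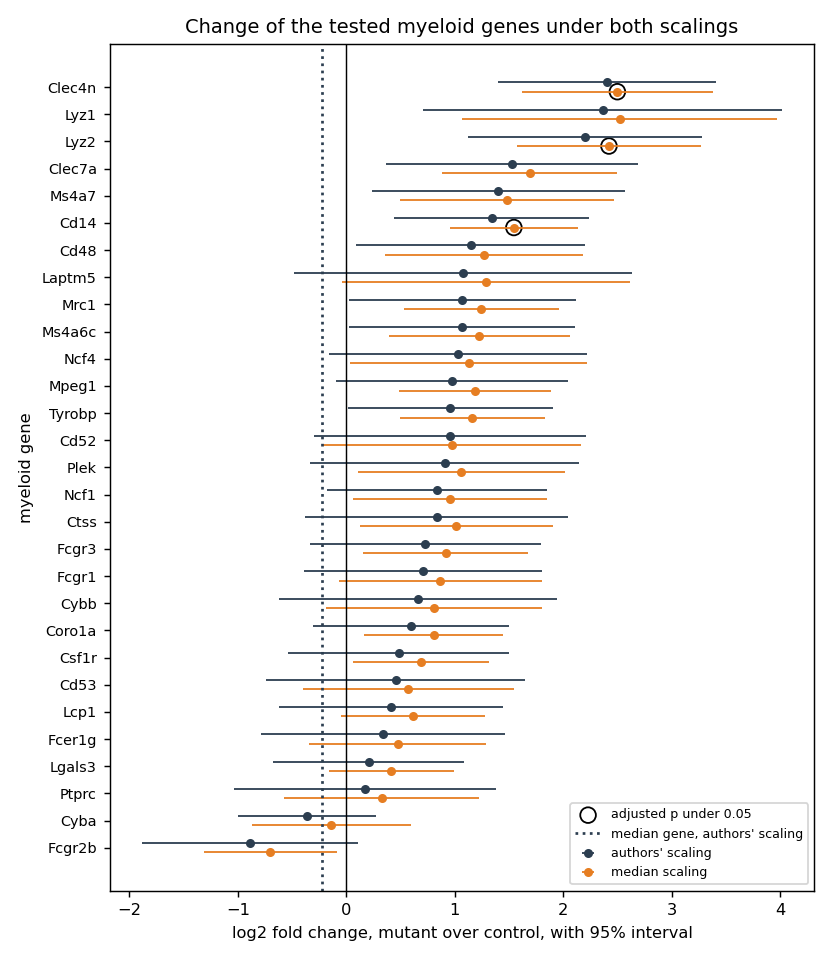
Log2 fold changes (mutant over control, on log2(BPM + 1)) with 95% intervals for the 29 tested myeloid genes, dark for the authors' scaling and orange for median scaling, with circles at an adjusted p under 0.05. The 3 circles are Clec4n, Lyz2 and Cd14 under median scaling, and Fcgr2b and Cyba are the genes left of 0.

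Each tested gene was next divided by Ptprc of the same library, which removes the scaling. This ratio was chosen after the values were seen. Of 28 genes, 6 had every mutant ratio above every control ratio, against 0.528% of all tested genes. They were Lyz1, Lyz2, Clec7a, Clec4n, Mpeg1 and Ms4a7. Of these, Clec4n entered the test chiefly through the mutants and had no coverage in controls 3401 and 3587. Ptprc had the smallest positive log2 fold change of the tested myeloid genes (0.17, against a median of 0.91). Most other myeloid genes therefore lean upward when divided by it. None of the 28 lay wholly below, against 0.827% of all tested genes. The ratio of Lyz2 to Ptprc was 7.01, 7.55, 5.87 and 9.54 in the controls, and 35.8, 26.01, 47.03 and 23.1 among the mutants. The ratio of Clec7a to Ptprc was 0.647, 0.298, 0.366 and 0.550 in the controls, and 1.30, 1.20, 1.78 and 1.13 among the mutants. For Mpeg1 the controls lay between 1.58 and 3.04 and the mutants between 3.13 and 5.30. The ratio of Csf1r to Ptprc overlapped between groups, with means of 2.38 ± 0.879 and 3.06 ± 1.08 (SD, n = 4 each). Ptprc was low in mutant 3487, at 2.34 BPM, and below all controls under both scalings. This raises the ratios in that library and makes them the least precise.

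Levels of different genes can be compared only per length, here per kilobase of the principal transcript. Cyba was the highest in the controls at 795 BPM per kilobase, followed by Lyz2 at 54.0, Lgals3 at 21.6, Tyrobp at 20.8 and Coro1a at 14.2 BPM per kilobase. In the mutants the order was Cyba (629), Lyz2 (354), Lyz1 (63.7), Tyrobp (47.5) and Lgals3 (29.4 BPM per kilobase). Lyz1 was at 4.46 BPM per kilobase in the controls. Its place in the mutants rested on mutant 3382, and without that library Lyz1 was at 18.9 BPM per kilobase, below Tyrobp at 31.4 and Lgals3 at 19.8.

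Under the authors' scaling no gene of the other lists passed (limma). Of their 101 tested genes 11 were higher and 3 lower at an unadjusted p under 0.05. Among all 13060 tested genes 827 lay under that level, 250 of them higher (1.91%). The C1q chains, complement proteins made by macrophages, were positive for 3 of 3 with a median log2 fold change of 1.27, and 0 passed. C1qb was at 13.7, 33.5, 26.5 and 30.8 BPM in the controls, and 146.7, 49.0, 34.2 and 56.9 BPM among the mutants, all above the controls (adjusted p = 0.510, limma), and C1qc had a log2 fold change of 1.30. Of 21 tested genes of other macrophages and monocytes, 0 passed, 16 were positive and the median was 0.63. The negative ones included Ly6c2, Stab1, Tlr4 and Mertk (log2 fold changes -0.98, -0.71, -0.29 and -0.19). Ms4a6d was at 0.551 ± 0.140 and 3.90 ± 2.18 BPM and Ms4a6b at 6.75 ± 3.13 and 16.4 ± 5.11 BPM (SD, n = 4 each; adjusted p of 0.320 and 0.599). Ms4a6d was under 1 BPM in every control and entered the test only through the mutants, where it was higher. Adgre1, the F4/80 antigen listed as Emr1, had coverage in all 8 libraries, at 4.89 ± 1.97 and 14.7 ± 12.03 BPM (SD, n = 4 each). Of 9 tested genes of dendritic cells, 0 passed and 7 were positive, led by the class II genes H2-Ab1 and H2-Aa (log2 fold changes 1.12 and 0.91). Xcr1 and Zbtb46 were negative (-0.26 and -0.35). In mutant 3382 the list summed to 1865 BPM, of which H2-Ab1 held 782 and Cd74 630 BPM. The class II gene H2-Eb1 was at 47.0 BPM there, within the controls, and had a log2 fold change of 0.11. With the small RNA covariate 3 C1q chains and 8 other macrophage and monocyte genes passed as higher. So did 3 genes of the dendritic list, 3 of fibroblasts, 1 of ITAM signalling and 1 of B and plasma cells. The share of all tested genes called higher there was 3.15%.

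Defining genes of neutrophils were nearly absent. Of 12 in the table, 7 (Camp, Ngp, Retnlg, Mmp8, Cxcr2, Elane and Mpo) had no coverage in at least 6 libraries. The summed level of that list was 1.49 to 9.19 BPM in the controls and 1.18 to 18.0 BPM in the mutants. S100a8 and S100a9 had log2 fold changes of 0.67 and -0.30. The list of T and NK cells summed to 13.01 to 20.6 BPM in the controls and 12.6 to 51.8 BPM in the mutants. Of its 7 tested genes 4 were positive, with a median log2 fold change of 0.17. Cd4 and Cd8a had the smallest p, at log2 fold changes of 1.01 and 0.80, while Cd3d and Gzma were at -0.18 each. Of the 7 tested genes of T and NK cells and the 3 of neutrophils, 0 passed. The list of B and plasma cells summed to 7.27 to 20.9 BPM in the controls and to 111.7, 16.7, 48.1 and 129 BPM in mutants 3382, 3387, 3487 and 3489. Most of this was Jchain, the antibody joining chain listed as Igj (log2 fold change 2.48, adjusted p = 0.0975, and 2.68 with 0.0181 under median scaling). Mzb1 had a log2 fold change of 0.84, and Pax5 and Pou2af1 had no coverage in at least 6 libraries. Cd4 and Mzb1 were under 1 BPM in at least 3 controls and entered the test chiefly through the mutants. The part of these lymphoid cells in genes such as Ptprc, Cd48, Cd52, Coro1a and Fcgr2b was not tested.

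**Figure D5:**
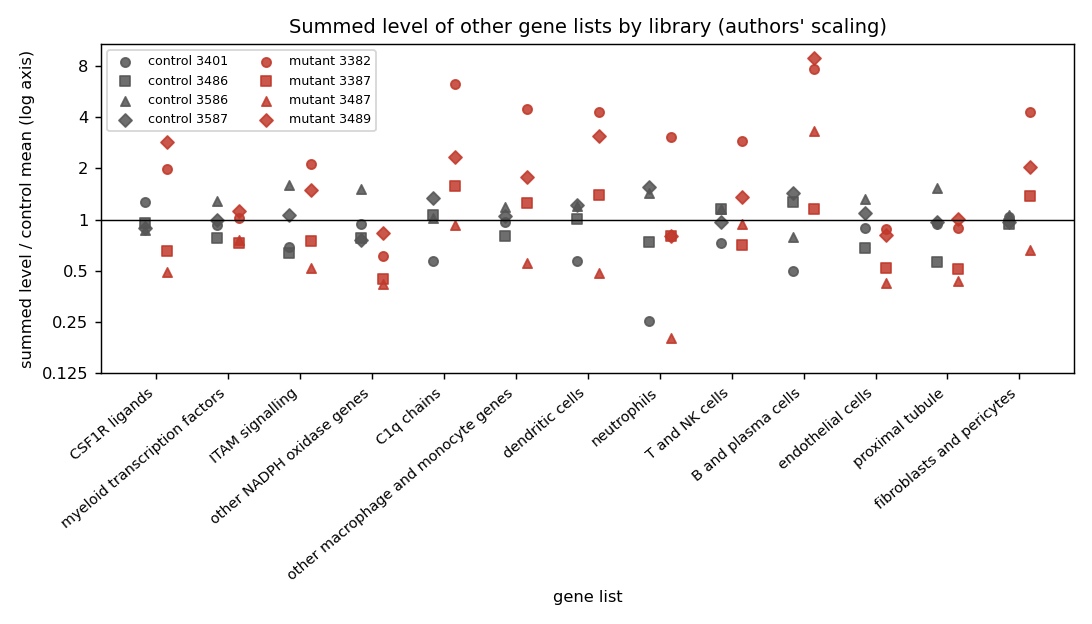
Points are the summed BPM of each gene list in single libraries divided by the control mean (log axis), grey for controls and red for mutants. Mutants 3382 and 3489 are high for the C1q, dendritic, B and plasma cell and fibroblast lists, and all mutants are below the control mean for the other NADPH oxidase genes and for endothelial genes.

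Fibroblast and pericyte genes, like the myeloid genes, summed higher in mutants 3382 and 3489 than in mutants 3387 and 3487. Their summed level was 411 to 464 BPM in the controls and 1869, 604, 291 and 889 BPM in mutants 3382, 3387, 3487 and 3489. This order was not particular to them. In the same mutants the endothelial list summed to 474, 280, 230 and 438 BPM and the proximal tubule list to 8358, 4817, 4061 and 9393 BPM. Of the 10 tested genes of fibroblasts and pericytes, 8 were positive and 0 passed. Col3a1 and Col1a1 had log2 fold changes of 1.49 and 1.44 (limma adjusted p of 0.461 and 0.638), and Pdgfra and Pdgfrb of -0.15 and -0.10. Under median scaling 10 were positive and Col3a1 passed (1.71, adjusted p = 0.0470). With the small RNA covariate 3 passed. The 10 proximal tubule genes were all negative with a median of -0.48 under the authors' scaling. They had 2 of 10 positive and a median of -0.26 under median scaling, and 8 and 0.09 with the small RNA covariate. The smallest p belonged to Cubn and Miox (-0.82 and -0.60), and Kdr and Ehd3 led the endothelial list (-1.06 and -0.82). None of these 20 passed. All 10 tubule genes had coverage in every library, as the label kidney requires.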

How the data were processed

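RNA of 8 whole kidneys was sequenced after removal of ribosomal RNA, with Ion Total RNA-seq libraries per the labels' protocols. The authors deposited 1 table of a coverage signal per gene, scaled to the same total in each library, together with their group means, a ratio (mutant over control) and an unadjusted p-value. The header states no unit. Every value was a multiple of its library's lowest (tolerance 1e-06), and 0.0435% of the positive ones lay below 20 such steps, so values were read as sequenced bases per gene plus 1. Reads behind a value are unknown, so no counting interval or floor is given. Per the submitters' processing notes bedtools and mm10 were used. Aligner, annotation and the use of strand were not given in the sources used here.

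Signal was divided by 280 (BPM). Genes with at least 1 BPM in 4 libraries were tested on log2(BPM + 1) by limma 3.58.1 under R 4.3.3, its variance prior following the mean, 2-sided, Benjamini-Hochberg adjusted over 13060 genes, threshold 0.05. Fold changes on this scale understate those of low genes. The fit was tested on simulated data, drawn independently for each gene. That simulation held no shift shared by the genes of a library, so it does not cover differences in small RNA share. Small RNA genes (709) came from GENCODE vM21 and RefSeq classes. Transcript lengths and overlaps came from GENCODE vM21 (GRCm38, the assembly of mm10). Values of each library were given for the 12 genes of smallest p and the leading gene of each role, and of other lists (138 genes, 137 in the table, 4 by an older symbol) for the called genes or the 2 of smallest p, of which some are not reported here. Other values were chosen after they were seen. The 37 genes, the lists and the alternatives were chosen with earlier results of these data known.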

Additional observations from a re-analysis of the deposited data

Results flagged for a closer look

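In groups of 4 libraries, 72 groups of single-gene values were checked for a library far from the other 3, and 7 were set apart, where chance sets apart about 1 in 20. That rate presumes independent values, which genes of the same libraries do not give. A gene with coverage in only a single library of a group is set apart by the rule itself. Control 3586, the control of lowest small RNA share, stood high for Csf1r (36.8 BPM, next 18.2), Cd163 (1.22 BPM, with no coverage in the other controls) and Siglec1 (0.795 BPM, likewise). Control 3486 stood high for Cd48 (3.83 BPM, next 1.82) and low for Fcer1g (3.51 BPM, next 4.69). Control 3401 stood low for Lgals3 (23.9 BPM, next 32.5). Mutant 3382 stood high for Cyba (686 BPM, next 407).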

How the results depend on the processing

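The sign of the median change of the tested myeloid genes relative to the median gene held in all 25 alternatives (0.76 to 1.398 against 1.13). The count of called myeloid genes (0 by limma with the authors' scaling) was 3 under median scaling, 3 with small RNA genes left out of the totals, 16 with the share of small RNAs as covariate, and 6 without mutants 3387 and 3487 (5 with median scaling). It ranged from 0 to 3 without single libraries and from 0 to 6 with median scaling and without single libraries (2 without mutant 3382, 3387 or 3489, and 3 without control 3486, 3586 or 3587). Counts of all called genes were 14, 59, 60, 487 and 69 (62 with median scaling) in that order of settings, 0 with no filter (1274 at an unadjusted p under 0.05), 6 with median scaling and no filter (0 of them myeloid), 9 at 5 BPM and 9 with a pseudocount of 0.1. They ranged from 7 to 48 and from 23 to 81 with median scaling, without single libraries (24, 60, 49 and 31 without controls 3401, 3486, 3586 and 3587, and 37, 23, 81 and 39 without mutants 3382, 3387, 3487 and 3489). Of the calls, 71.4% were higher with the authors' scaling and 88.1% with median scaling. Myeloid genes with every mutant above every control numbered 3, and 6 under both other scalings, 7 with median scaling and no filter (adding Msr1), 25 without mutants 3387 and 3487 (22 with median scaling), 3 to 9 without single libraries, and 6 to 14 with median scaling (11 without control 3486, 10 without mutant 3387). Over all tested genes the shares were 0.888%, 2.79% with median scaling and 2.85% without small RNAs, 1.91% with median scaling and no filter, 13.3% without both mutants (9.59% with median scaling), 0.988% to 3.11% without single libraries, and 3.61% to 5.46% with median scaling. Signs turned in 7 cases without a single library. They were Ptprc (-0.00 without control 3401, -0.30 without mutant 3382 and -0.18 without mutant 3489), Lgals3 (-0.20 without mutant 3382) and Fcer1g (-0.11 without mutant 3489), and with median scaling Cyba (0.091 without control 3486 and 0.075 without mutant 3489). The highest values without a single library were 0.77 for Ptprc, 0.52 for Lgals3 and 0.78 for Fcer1g, each without mutant 3487. The cause was not tested. Ratios to Ptprc above all controls numbered 6, and 6 to 9 without single libraries. Median scaling combined with left-out libraries or no filter and the Ptprc ratios were chosen after seeing the data. Left-out libraries kept the same tested genes. No paired analysis was possible because the groups share no library numbers. Depth in reads is unknown, and 8 of the 37 genes were too low to be tested.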
